A study of Mus musculus with 6 samples.

Results

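miR-146 and miR-21 are microRNAs that glia and immune cells make when inflammatory signalling is switched on, and their levels were described here in the prefrontal cortex of aged mice 6 days after surgery. The set was defined by name and not by a limit on measured values, although earlier results of these data were known. It holds both arms of the miR-146a hairpin (mmu-miR-146a-5p and mmu-miR-146a-3p), the 5p arm of miR-146b (mmu-miR-146b-5p) and both arms of the miR-21a hairpin (mmu-miR-21a-5p and mmu-miR-21a-3p), which makes 5 names. Of these 5, 4 had a value among the 1189 entries of the expression table, and miR-146a-3p was not analysed here. The species prefix is left out below.

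NF-kB, the transcription factor activated by Toll-like and interleukin-1 receptors, induces miR-146a, which in turn represses Traf6 and Irak1, adaptors of the same receptors, and so forms a negative feedback loop. miR-146b comes from another locus and recognises the same target sites. miR-21 is induced by STAT3, the transcription factor downstream of interleukin-6 family cytokines, represses Pdcd4 among others, and is raised in reactive astrocytes and activated microglia. These roles are background from other work and were not measured in these samples.

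Small RNA was sequenced from the prefrontal cortex of 6 male wild type C57BL/6 mice of 18 months, with 1 library per mouse, 3 in the group with postoperative neurocognitive disorder (PND) and 3 in the control (CON) group. PND mice had breathed 1.5% isoflurane for 30 min and then had an exploratory laparotomy lasting 30 min under the same anaesthetic, with lidocaine cream and povidone iodine on the wound afterwards. CON mice had no operation and no anaesthesia at that time, so surgery and isoflurane cannot be told apart in this design. All mice went through the same behavioural tests, were deeply anaesthetised with isoflurane at the end and were perfused with saline. The sample titles carry 17M, whereas the age is recorded as 18 months.

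The values are CPM, that is reads of an entry for every 1000000 reads on all listed miRNAs. The libraries held 14849461 to 19471226 miRNA reads, so that a level of 3 reads, taken as the floor, lay between 0.154 and 0.202 CPM. No molecular identifiers are described, and the floor covers counting error only. The markers of neurons and cortex (miR-124-3p, miR-128-3p, miR-9-5p and miR-9-3p) together took 284021 to 374598 CPM in every library, and miR-128-3p was the most abundant entry in all 6. CON mouse 1 stood apart in the 5 epithelial markers of the miR-200 family, which summed to 861 CPM there and to at most 36.7 CPM in the other libraries. PND mouse 1 stood apart in the sum of the 4 red blood cell markers, with 101 CPM against at most 54.7 CPM elsewhere. The excess lay mainly in miR-451a, with 40.9 CPM there and 3.08 CPM in CON mouse 1, the next highest. For miR-486a-5p these 2 mice had 57.9 and 51.3 CPM. In CON mouse 2 miR-128-3p alone took 29.2% of the reads, against 17.6% to 23.2% in the other mice.

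The mature sequences show which of the 5 names could act on the same targets, since target choice rests mainly on the seed, bases 2 to 8 counted from the 5′ end. They are taken from RefSeq (GRCm38.p6), written 5′ to 3′ with the seed in capitals, and miR-146b-3p is shown as the partner arm of miR-146b-5p.
miR-146a-5p: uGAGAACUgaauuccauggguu
miR-146b-5p: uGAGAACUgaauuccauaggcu
miR-21a-5p: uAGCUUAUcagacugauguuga
miR-21a-3p: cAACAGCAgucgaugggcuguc
miR-146a-3p: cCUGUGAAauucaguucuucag
miR-146b-3p: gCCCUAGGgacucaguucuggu
miR-146a-5p and miR-146b-5p had the same seed and were identical over the first 17 bases. They differed at 2 of 22 positions near the 3′ end, by G18A and U21C (the base of miR-146a-5p first, position from the 5′ end, then the base of miR-146b-5p). The sources used here do not give the number of mismatches the authors allowed or how they treated multi-mapping reads, and reads could have been exchanged between this pair. Of 1156 entries with a miRBase name, 997 had a mature sequence in the reference, and among those 2 carried the seed of miR-146a-5p, namely this pair. miR-21a-5p was the single entry with its seed. miR-21c, which shares the seed and the first 15 bases of miR-21a-5p, was not analysed here.

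The hairpins lie at 3 separate loci of GRCm38.p6. The miR-146a hairpin (gene Mir146, 65 bases) lies on the minus strand of chromosome 11 from 43374397 to 43374461, and GENCODE release M21 lists no other gene there. The miR-146b hairpin (Mir146b, 109 bases) lies on the plus strand of chromosome 19 from 46342762 to 46342870, within Mfsd13a, a protein-coding gene read from the same strand, in an intron. The miR-21a hairpin (Mir21a, 92 bases) lies on the minus strand of chromosome 11 from 86584067 to 86584158, inside the UTR part of exon 12 of the protein-coding gene Vmp1 on the same strand. The submitters' processing notes name mm8 and mm9, and the deposited values carry no positions, so these positions are those of the reference only.

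The 4 measured arms spanned levels from the top 42 entries to the level of single reads. As all of them are 22 bases long, their CPM values can be set side by side, although ligation during library preparation can favour some sequences over others. In every mouse miR-21a-5p was the most abundant, followed by miR-146a-5p, then miR-146b-5p and last miR-21a-3p, and no mouse of one arm reached the range of the next. miR-21a-5p ranked between 34 and 42 of the 1189 entries, miR-146a-5p between 66 and 71, miR-146b-5p between 98 and 117, and miR-21a-3p between 655 and 932.

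miR-21a-5p, the guide strand of the miR-21 hairpin, had 3889, 4960 and 5128 CPM in PND mice 1, 2 and 3 (75726, 87292 and 90823 reads) and 3727, 2802 and 4382 CPM in CON mice 1, 2 and 3 (56932, 41611 and 70526 reads). PND mice 2 and 3 were above all CON mice, whereas PND mouse 1 lay below CON mouse 3, so the groups overlapped. PND mice averaged 4659 ± 672 CPM and CON mice 3637 ± 794 CPM (mean ± SD, n = 3 each). Two-sided exact permutation of the mice gave p = 0.2 for this difference, where 3 against 3 cannot go below 0.1. In limma on log2(CPM + 1), fitted on all 1189 entries, PND exceeded CON by a log2 fold change of 0.37 with a standard error of 0.18, and the Benjamini-Hochberg adjusted p was 0.77. Its 95% interval ran from -0.05 to 0.79, that is from 0.967-fold to 1.73-fold, so that a rise of this size and no rise are both within it. CON mouse 2 was the lowest of the 6, and without it the log2 fold change was 0.19.

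miR-146a-5p, the feedback inhibitor of NF-kB signalling, had 1001, 1130 and 1173 CPM in PND mice 1, 2 and 3 (19496, 19882 and 20771 reads) and 1138, 1046 and 1135 CPM in CON mice 1, 2 and 3 (17387, 15536 and 18264 reads). The PND group held both the lowest and the highest mouse. PND mice averaged 1101 ± 89.2 CPM and CON mice 1106 ± 52.2 CPM (mean ± SD, n = 3 each) (p = 0.8 by two-sided exact permutation). The log2 fold change was -0.01 (limma, standard error 0.10, adjusted p = 0.98). The 95% interval ran from 0.843-fold to 1.17-fold and so did not reach the 2-fold limit of the study in either direction.

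miR-146b-5p, which shares the targets of miR-146a-5p through its seed, had 437, 468 and 453 CPM in PND mice 1, 2 and 3 (8515, 8234 and 8022 reads) and 426, 434 and 469 CPM in CON mice 1, 2 and 3 (6507, 6447 and 7549 reads). All 6 mice lay in a narrow band and the groups overlapped. PND mice averaged 453 ± 15.3 CPM and CON mice 443 ± 22.9 CPM (mean ± SD, n = 3 each) (p = 0.6 by two-sided exact permutation). The log2 fold change was 0.03 (limma, standard error 0.10, adjusted p = 0.96), with a 95% interval from 0.873-fold to 1.20-fold.

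miR-21a-3p, the passenger strand of the miR-21 hairpin, had 5, 10 and 1 reads in PND mice 1, 2 and 3 and 3, 1 and 2 reads in CON mice 1, 2 and 3. No CON mouse and not PND mouse 3 exceeded the floor of 3 reads, so the depth does not allow a statement on the groups. In CPM the PND mice had 0.257, 0.568 and 0.0565 and the CON mice 0.196, 0.0673 and 0.124 (p = 0.5 by two-sided exact permutation). The fitted log2 fold change of 0.18 (limma, standard error 0.14, adjusted p = 0.77) depends on the pseudocount, since the control group lay at the floor, and is no measure of the size of a difference.

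**Figure D1:**
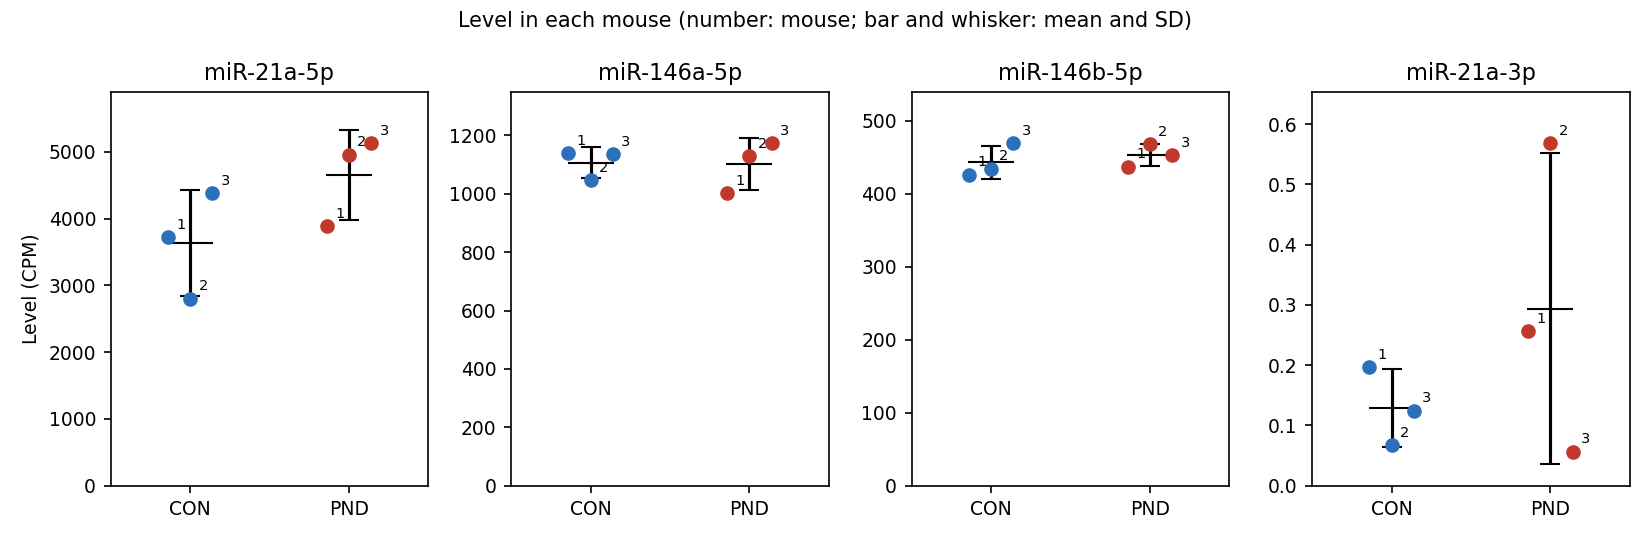
Level in CPM (y axis, from 0, with a scale of its own for each miRNA) of miR-21a-5p, miR-146a-5p, miR-146b-5p and miR-21a-3p in the 3 CON mice (blue) and the 3 PND mice (red), numbered by mouse, with the group mean (horizontal bar) and SD (whisker). The groups overlap in all 4 panels, and the widest gap between group means among the abundant arms is that of miR-21a-5p, with 4659 CPM in PND and 3637 CPM in CON.

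None of the 4 measured arms passed an unadjusted p under 0.05 in limma, where 5.13% of all entries did (61 of 1189, with 48 higher and 13 lower in PND). By direction the background was 4.04% higher and 1.09% lower in PND. The limits of the study, an unadjusted p under 0.05 with more than a 2-fold change, were applied here to limma on log2(CPM + 1). Its methods name edgeR for the p-values and TPM values for the fold changes, beside limma. None of the arms passed both limits, as 0.0841% of all entries did, and none had an adjusted p under 0.05, as 0.421% had. The groups did not overlap for 0 of the 4 arms, whereas they did not overlap for 9.92% of all entries (7.91% with PND higher and 2.02% with CON higher). By edgeR's quasi-likelihood test on the reads, run as an alternative, 0 of the 4 arms had an unadjusted p under 0.05. In that test 50 of the 1189 entries did, and 32 passed both limits.

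CPM values are shares of a library, and most abundant entries lay higher in PND on this scale. Over the 361 entries with a mean of at least 10 CPM, 286 had a log2 fold change above 0, with a median of 0.14. Relative to that median miR-21a-5p lay 0.23 higher on the log2 scale, whereas miR-146a-5p lay at -0.15 and miR-146b-5p at -0.10. Of these 361 entries, 56 had a larger log2 fold change than miR-21a-5p, 264 a larger one than miR-146b-5p and 295 a larger one than miR-146a-5p.

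After scaling the libraries with TMM factors, which brought the median of the 361 entries to 0.02, the log2 fold change was 0.25 for miR-21a-5p, -0.13 for miR-146a-5p and -0.09 for miR-146b-5p, so the sign of miR-146b-5p turned. On this scale miR-146a-5p had 1002, 1061 and 1098 CPM in PND mice 1, 2 and 3 and 1104, 1217 and 1143 CPM in CON mice 1, 2 and 3. Every PND mouse was then below every CON mouse (p = 0.1, the smallest possible by two-sided exact permutation), which was so for 3.45% of all entries (PND was wholly higher for 5.38%), and its adjusted p in limma was 0.82. With DESeq2 size factors miR-146a-5p had 996, 1061 and 1071 CPM in PND mice 1, 2 and 3 and 1096, 1254 and 1152 CPM in CON mice 1, 2 and 3. The PND mice were again below all CON mice, as for 3.7% of all entries (PND was wholly higher for 5.13%), with an adjusted p of 0.81 in limma. The groups overlapped in CPM as deposited and did not overlap on either rescaled measure. miR-21a-5p had 3892, 4660 and 4800 CPM after TMM scaling in the PND mice and 3614, 3259 and 4416 CPM in the CON mice, and its groups still overlapped (p = 0.2 by two-sided exact permutation).

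**Figure D2:**
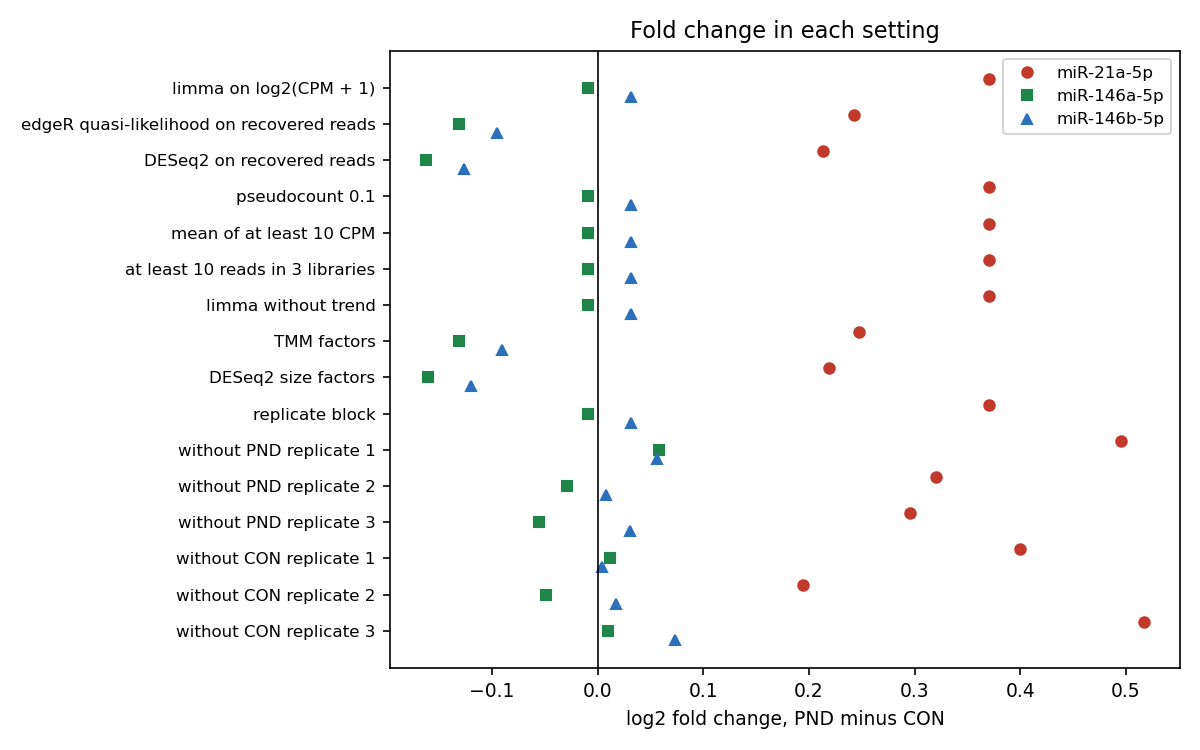
log2 fold change, PND minus CON (x axis), of miR-21a-5p (red circles), miR-146a-5p (green squares) and miR-146b-5p (blue triangles) in each setting (y axis), from limma on log2(CPM + 1) at the top to the fits with 1 mouse left out at the bottom. miR-21a-5p lies between 0.19 and 0.52 throughout, whereas the signs of both miR-146 arms depend on the setting.

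The mice differed more in miR-21a-5p than in either miR-146 arm. The spread within groups, given as the residual SD of log2(CPM + 1), was 0.28 for miR-21a-5p, 0.10 for miR-146a-5p and 0.06 for miR-146b-5p. Among the 361 entries with a mean of at least 10 CPM, 72.9% had a smaller residual SD than miR-21a-5p, 18.8% a smaller one than miR-146a-5p and 6.09% a smaller one than miR-146b-5p. The difference in spread between the arms was not tested.

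Over the 6 mice the ratio of the pair with the same seed lay between 2.29 and 2.67. Each arm alone also varied little. The highest mouse was 1.17 times the lowest for miR-146a-5p and 1.10 times for miR-146b-5p. miR-146a-5p exceeded miR-146b-5p by 2.29, 2.41 and 2.59 times in PND mice 1, 2 and 3 and by 2.67, 2.41 and 2.42 times in CON mice 1, 2 and 3. The ratio averaged 2.43 ± 0.151 in PND and 2.50 ± 0.149 in CON (mean ± SD, n = 3 each), and on the log2 scale it differed by -0.04 (p = 0.6 by two-sided exact permutation). The ratio in each mouse does not depend on how the libraries were scaled. Together the pair brought 1554 ± 101 CPM of this seed to PND mice and 1550 ± 63.1 CPM to CON mice (mean ± SD, n = 3 each) (p = 1 by two-sided exact permutation), of which miR-146a-5p gave 69.6% to 72.8%.

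Arm ratios describe which strand of a hairpin is kept, and the share of reads on each arm within a library does not depend on how libraries are scaled. For the miR-21a hairpin the 3p arm made up 0.0066%, 0.0115% and 0.0011% of the reads of both arms in PND mice 1, 2 and 3, and 0.0053%, 0.0024% and 0.0028% in CON mice 1, 2 and 3. The exact 95% binomial (Clopper-Pearson) intervals overlapped between the groups, for example 0.0055% to 0.0211% in PND mouse 2 and 0.0011% to 0.0154% in CON mouse 1. Over all 6 mice there were 22 reads of the 3p arm among 422932, or 19223 reads of miR-21a-5p for each read of miR-21a-3p. The mean share was 0.0064% ± 0.0052 (SD, n = 3) in PND and 0.0035% ± 0.0015 (SD, n = 3) in CON (p = 0.5 by two-sided exact permutation).

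For the miR-146b hairpin the 3p arm made up 0.896%, 0.783% and 0.779% of the reads in PND mice 1, 2 and 3 (77, 65 and 63 reads) and 0.763%, 0.815% and 0.815% in CON mice 1, 2 and 3 (50, 53 and 62 reads). The mean share was 0.820% ± 0.0664 (SD, n = 3) in PND and 0.798% ± 0.0303 (SD, n = 3) in CON (p = 0.8 by two-sided exact permutation), and the groups overlapped. In a limma fit over 153 hairpins on the 5p minus the 3p value of log2(CPM + 1), where a difference above 0 means relatively less 3p in PND, the difference between PND and CON was -0.02 (standard error 0.13, adjusted p = 0.94), where 3.92% of the hairpins had an unadjusted p under 0.05. miR-21a-3p was under the minimum of 1 CPM of that fit. In a limma fit over all 386 hairpins with both arms listed the difference for miR-21a was 0.19 (standard error 0.21, adjusted p = 0.80). It turned to -0.21 with a pseudocount of 0.1. In the fit of the 386 hairpins on log2(CPM + 1), 5.96% had an unadjusted p under 0.05. Neither miR-21a nor miR-146b had one. As miR-21a-3p lay below 1 CPM in every mouse, its fitted difference depends on the pseudocount, has a sign opposite to that of the read shares and gives no direction for the arms.

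Among hairpins with both arms listed under matching names, miR-21a was one of those with the most uneven arms. Other hairpins were not ranked. Of 204 such hairpins with at least 1000 reads on both arms together, it came at place 5 from the smallest share of the minor arm. That share was 0.0052% over all mice. miR-146b came at place 71 with 0.811%, and the median share of the minor arm was 2.69%. The ratio for the miR-146a hairpin was not analysed here.

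**Figure D3:**
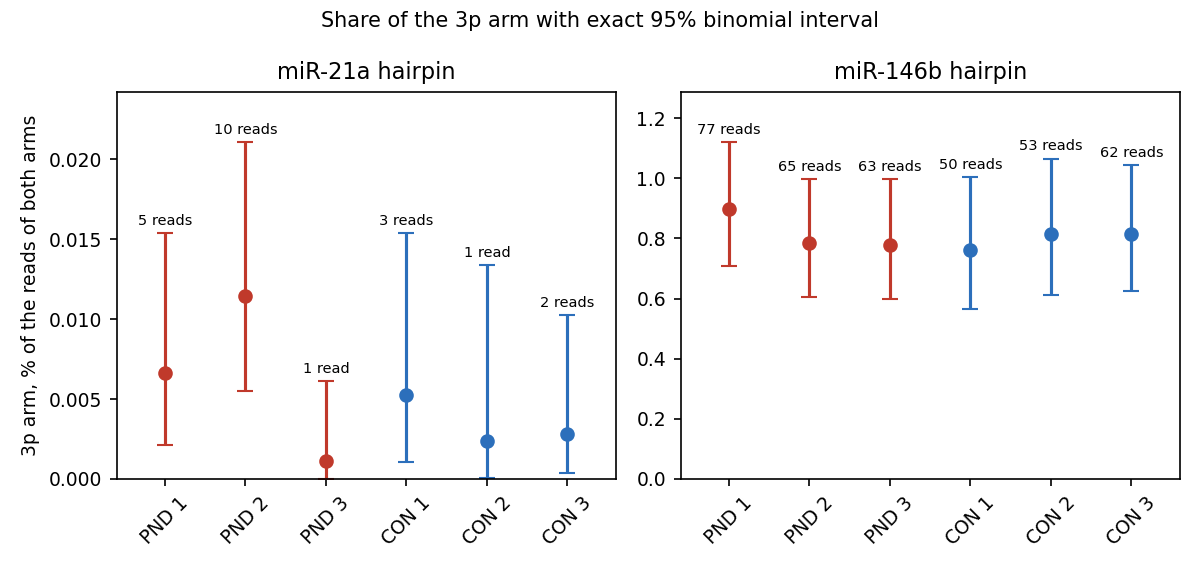
Reads of the 3p arm as a percentage of the reads of both arms (y axis, from 0, with a scale of its own for each panel) for the miR-21a and miR-146b hairpins in each mouse (PND red, CON blue), with exact 95% binomial intervals and the number of 3p reads. The intervals overlap between PND and CON mice in both panels, and miR-21a rests on 1 to 10 reads of the 3p arm per mouse.

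Other miRNAs tied to NF-kB, STAT3 or inflammatory signalling were described from a list of 14 arms, all of which had values. Of the 14, 12 had a log2 fold change above 0 and 2 below 0, with a median of 0.12, against 0.14 for the 361 abundant entries and 0.05 for all 1189. One arm rose at an unadjusted p under 0.05, where 4.04% of all entries did so in this direction, and 0 of the 14 had an adjusted p under 0.05. With TMM factors 9 lay above 0 and 5 below, with a median of 0.07 against 0.02 for the 361 abundant entries. On that scale 0 of the 14 had an unadjusted p under 0.05 in limma, where 51 of the 1189 entries did.

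The arm that passed the unadjusted limit was miR-34a-5p, a target of p53 that is also linked to NF-kB. It had 105, 140 and 142 CPM in PND mice 1, 2 and 3 and 90.01, 94.95 and 106 CPM in CON mice 1, 2 and 3. PND mice 2 and 3 lay above all CON mice, and PND mouse 1 just below CON mouse 3. In limma its log2 fold change of 0.40 had a standard error of 0.15, with an unadjusted p of 0.031 and an adjusted p of 0.77, and the groups overlapped (p = 0.2 by two-sided exact permutation).

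miR-155-5p, the pro-inflammatory counterpart of miR-146a that NF-kB induces in macrophages and microglia, was scarce. It had 5.85, 4.66 and 5.82 CPM in PND mice 1, 2 and 3 (114, 82 and 103 reads) and 4.91, 3.91 and 4.41 CPM in CON mice 1, 2 and 3 (75, 58 and 71 reads). PND mouse 2 lay below CON mouse 1, so the groups overlapped (p = 0.2 by two-sided exact permutation). The log2 fold change was 0.25 (limma, standard error 0.17, adjusted p = 0.77). Its passenger arm miR-155-3p had at most 2 reads in any mouse. miR-147-3p and miR-147-5p, which Toll-like receptors induce in macrophages, had at most 8 reads in any mouse.

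miR-221-3p, which shares a cluster with miR-222-3p, was the single arm of this list whose groups did not overlap, with 3984, 4151 and 4427 CPM in PND mice 1, 2 and 3 and 3916, 3702 and 3860 CPM in CON mice 1, 2 and 3 (p = 0.1, the smallest possible by two-sided exact permutation). Over all entries 7.91% had groups that did not overlap with PND higher. Its log2 fold change was 0.13 (limma, standard error 0.09, adjusted p = 0.77), against a median of 0.14 for the abundant entries, and it was 0.01 with TMM factors, where the groups overlapped.

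**Figure D4:**
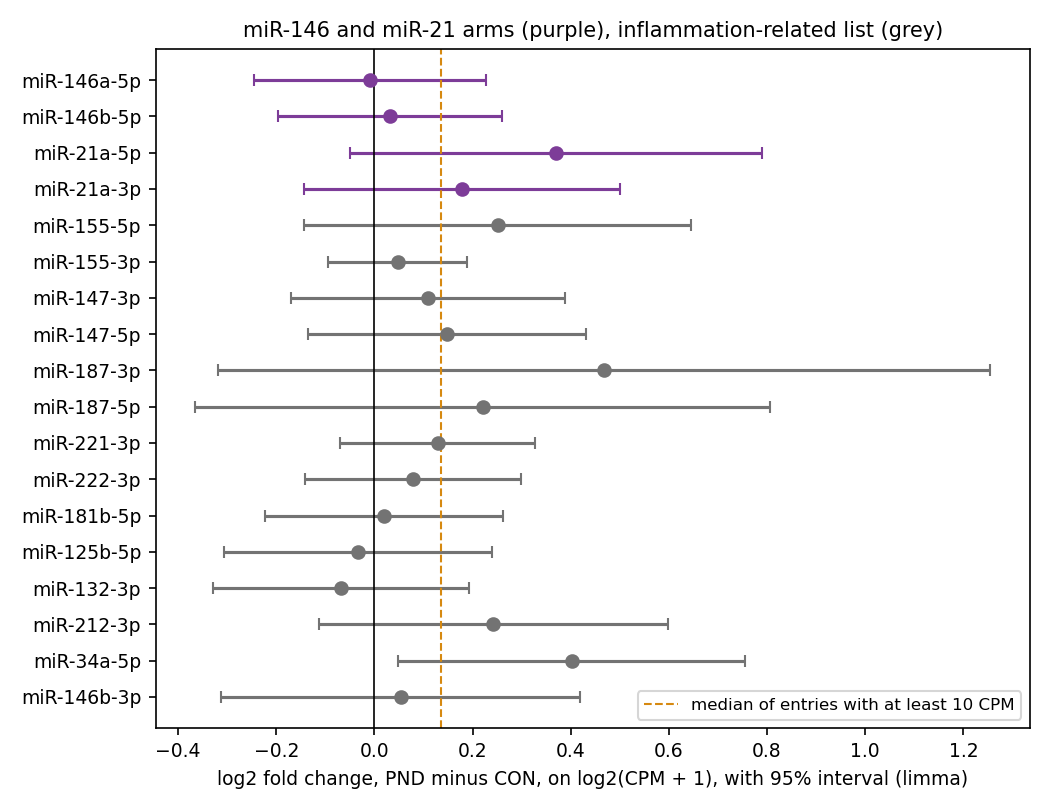
log2 fold change, PND minus CON, from limma on log2(CPM + 1) with its 95% interval (x axis) for the 4 measured miR-146 and miR-21 arms (purple) and the 14 arms of the inflammation-related list (grey). The dashed line is the median of the 361 entries with a mean of at least 10 CPM, 0.14. Of the arms plotted, the interval excludes 0 for miR-34a-5p alone, and the values of arms with few reads depend on the pseudocount.

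Markers of other cell types were read beside these values, and their part in them was not tested. In bulk tissue fewer cells of a type and less RNA per cell cannot be told apart. All 5 leukocyte and microglia markers were detected in all 6 mice, and their sum was 299.7 to 332 CPM in PND and 279.7 to 328 CPM in CON, most of it miR-150-5p. The myeloid marker miR-223-3p averaged 1.69 CPM in PND and 2.14 CPM in CON (log2 fold change -0.23, adjusted p = 0.77 from limma), and miR-223-5p 0.566 and 0.626 CPM (log2 fold change -0.06, adjusted p = 0.91 from limma), and both overlapped between the groups. miR-142a-5p, a marker of blood-derived cells and microglia, lay at 1.85, 2.05 and 2.43 CPM in PND mice 1, 2 and 3 against 1.64, 0.741 and 1.24 CPM in CON mice 1, 2 and 3 (11 to 43 reads), with groups that did not overlap, as for 7.91% of all entries with PND higher (unadjusted p = 0.034 and adjusted p = 0.77 from limma).

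miR-142a-5p was the single one of these 5 to pass the unadjusted limit, where 4.04% of all entries passed it with PND higher. miR-142a-5p also passed it with TMM factors (limma, unadjusted p = 0.040, adjusted p = 0.82). Its groups still did not overlap there, as for 5.38% of all entries with PND higher. With DESeq2 size factors (limma, unadjusted p = 0.044, adjusted p = 0.81) and edgeR (unadjusted p = 0.026, adjusted p = 0.82) it passed too. In either direction 51 of the 1189 entries passed with TMM factors, 53 with DESeq2 size factors and 50 with edgeR. All these settings use the same reads. The partner arm miR-142a-3p averaged 12.6 CPM in PND and 9.43 CPM in CON, with groups that overlapped. Its log2 fold change was 0.44 (limma, unadjusted p = 0.30, adjusted p = 0.77). All 4 endothelial and mural cell markers were detected in all mice, and 1 of the 4, miR-145a-5p, passed the unadjusted limit with PND higher (unadjusted p = 0.049 and adjusted p = 0.77 from limma, against the same 4.04% of all entries). It missed that limit with TMM factors (limma, unadjusted p = 0.086), DESeq2 size factors (limma, unadjusted p = 0.127) and edgeR (unadjusted p = 0.115). Another of the 4, miR-126a-5p, passed it with edgeR (log2 fold change 0.35, unadjusted p = 0.043, adjusted p = 0.82). It missed it in limma on CPM as deposited (unadjusted p = 0.055) and with TMM factors (limma, unadjusted p = 0.052). The 4 markers summed to 22053 to 23890 CPM in PND and 19026 to 24041 CPM in CON. Of the 6 mice, CON mouse 3 had the highest sum. Its miR-21a-5p (4382 CPM) was the highest of the CON group but below that of PND mice 2 and 3 (4960 and 5128 CPM). The 3 oligodendrocyte markers summed to 1575 to 1765 CPM in PND and 1384 to 1607 CPM in CON. Both sums were lowest in CON mouse 2, as were miR-21a-5p and the red blood cell (31.9 CPM) and choroid plexus (594 CPM) sums. In that mouse miR-128-3p took 29.2% of the reads, and the marker sums were not rescaled. The 5 epithelial markers, which were highest in CON mouse 1, summed to 27.3 to 36.7 CPM in PND and 31.6 to 861 CPM in CON, and the log2 fold change of miR-21a-5p without that mouse was 0.40. The 4 red blood cell markers summed to 47.1 to 101 CPM in PND and 31.9 to 54.7 CPM in CON, and without PND mouse 1 the log2 fold change of miR-21a-5p was 0.50. The 3 choroid plexus markers summed to 774 to 807 CPM in PND and 594 to 938 CPM in CON. The 4 neuron and cortex markers summed to 284021 to 318352 CPM in PND and 310165 to 374598 CPM in CON. Of these 4, 3 had a log2 fold change above 0. The other, miR-128-3p, had one of -0.29 (limma, adjusted p = 0.77).

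The entries with the pattern most like each arm over the 6 mice were found by the root mean square difference of log2(CPM + 1), each entry centred on its own mean, among the 361 abundant entries. Nearest to miR-21a-5p were miR-181a-1-3p (0.05), miR-380-5p (0.07) and miR-376a-5p (0.07), against a spread of miR-21a-5p itself of 0.29. miR-181a-1-3p, for example, had 202, 243 and 258 CPM in PND mice 1, 2 and 3 and 193, 154 and 221 CPM in CON mice 1, 2 and 3, in the same order of mice as miR-21a-5p. Nearest to miR-146a-5p were miR-504-5p (0.05), miR-434-3p (0.05) and miR-1839-5p (0.06), and nearest to miR-146b-5p were miR-383-5p (0.02), miR-1843a-5p (0.03) and miR-30e-3p (0.03). Of the 360 other entries, miR-146b-5p was 14th in likeness to miR-146a-5p, and miR-21a-5p was 270th. As the spreads of both miR-146 arms were small, at 0.08 and 0.05, entries that vary little rank near them whatever their order of mice. The entries share the same 6 libraries, and no test was made of these likenesses.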

How the data were processed

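The members and gene lists were chosen with earlier results of these data known. According to the methods, the authors filtered reads with fastx, aligned clean reads with Bowtie (version 0.12.2 in the submitters' processing notes), took known miRNAs from miRBase positions, applied TMM and scaled to total reads. The authors deposited 1 CPM value per miRNA and mouse, which they call TPM. Each library sums to the same total, so TMM scaling between libraries can no longer be seen. The library kit is an NEBNext small RNA kit in the methods but a VAHTS total RNA kit in the labels. The miRBase release, mismatches and multi-mapping rule are not given in the sources used here.

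Whole reads were recovered from the size of 1 read for 100% of values (tolerance 0.02 reads). Between libraries of the same group the reads differed beyond sampling (chi-square per degree of freedom 120 to 650), so no library was a copy. The mice were counted as replicates.

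PND was compared with CON by limma 3.58.1 in R 4.3.3 (lmFit, eBayes with trend) on log2(CPM + 1) of all 1189 entries, without covariates or filter. This scale understates the change of low entries. P-values were adjusted by Benjamini-Hochberg, over the 1189 entries or, for arm ratios, over the hairpins of the fit. The limits of the study are an unadjusted p under 0.05 and more than a 2-fold change. Exact permutation tests over the 6 mice were two-sided, made with scipy 1.17.1 in Python 3.11.15. An arm ratio was the difference of log2(CPM + 1) between the 5p and 3p arms, for hairpins with a mean of at least 1 CPM in both. The fit without that minimum, the miR-146b ratio and the levels per mouse after DESeq2 size factors were added after seeing the data. edgeR 4.0.16 and DESeq2 1.42.0 on the recovered reads were alternatives, beside a pseudocount of 0.1, filters (a mean of 10 CPM, or 10 reads in 3 libraries), no trend, TMM or DESeq2 size factors, the replicate number as a block, and leaving out each mouse. The fits were tested on simulated data. The text names the members, entries that share a seed with one, the inflammation-related and marker lists, and the 3 entries most like each abundant arm. The reference sequences are RefSeq's and the gene annotation is GENCODE release M21, both on GRCm38.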

Additional observations from a re-analysis of the deposited data

How the results depend on the processing

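No miR-146 or miR-21 arm had an adjusted p under 0.05 in any setting that gave it one. miR-21a-5p kept a positive log2 fold change in all alternatives, from 0.21 to 0.37 in the 9 with all mice and from 0.19 to 0.52 with 1 mouse left out. In limma the unadjusted p passed 0.05 for miR-21a-5p without CON mouse 3 (unadjusted p = 0.039, adjusted p = 0.66) and for miR-21a-3p without PND mouse 3 (unadjusted p = 0.043, adjusted p = 0.94). miR-146a-5p kept its negative sign in the 9 with all mice (-0.16 to -0.01) and lay between -0.056 and 0.058 with 1 mouse left out, above 0 without PND mouse 1, CON mouse 1 or CON mouse 3. miR-146b-5p turned negative with edgeR (-0.095), DESeq2 (-0.13), TMM factors (-0.091) and DESeq2 size factors (-0.12), each of which rescales the libraries. The miR-21a arm difference became -0.21 with a pseudocount of 0.1 and lay between -0.020 and 0.34 with 1 mouse left out, below 0 without PND mouse 3. Leaving out 1 mouse moved the miR-146b arm difference between -0.052 and 0.036 (above 0 without PND mouse 1) and the log2 ratio of miR-146a-5p to miR-146b-5p between -0.087 and 0.0080 (above 0 without PND mouse 1 or CON mouse 1). miR-21a-3p has no value with a mean of 10 CPM or 10 reads in 3 libraries required, neither hairpin ratio has one with 10 CPM in both arms, and the miR-146a arm ratio has none.

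The background counts over all entries changed more. Entries with an unadjusted p under 0.05 went from 61 to 28 with DESeq2, to 32 with 10 reads in 3 libraries, to 5 with a mean of 10 CPM, and to between 31 and 91 with 1 mouse left out (31 without PND mouse 2 and 40 without CON mouse 2). Entries past both limits went from 1 to 32 with edgeR, 11 with DESeq2, 22 with a pseudocount of 0.1, 2 with the block, 0 with a mean of 10 CPM and 0 without trend, and lay between 0 and 1 with 1 mouse left out (0 without PND mouse 2 or CON mouse 1). Entries with an adjusted p under 0.05 in limma went from 5 to 0 with a mean of 10 CPM, with 10 reads in 3 libraries, without trend (57 with an unadjusted p under 0.05) and with the block (56), and lay between 0 and 3 with 1 mouse left out (0 without PND mouse 2 or any CON mouse).

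The labels number the mice 1 to 3 in both groups. Over the 361 abundant entries the deviations of same-numbered mice from their group means correlated at -0.128, 0.122 and 0.508, so the numbers were not taken as pairs. With the replicate number as a block, miR-21a-5p had a log2 fold change of 0.37 (standard error 0.16, adjusted p = 0.75), and the block changed no call of the 4 arms. Depth limits miR-21a-3p, with 1 to 10 reads per mouse, and 3 mice a group limit the other arms.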
